A study of Rattus norvegicus with 8 samples.

Results

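The let-7 and miR-98 family consists here of the 9 guide strands rno-let-7a-5p, rno-let-7b-5p, rno-let-7c-5p, rno-let-7d-5p, rno-let-7e-5p, rno-let-7f-5p, rno-let-7g-5p, rno-let-7i-5p and rno-miR-98-5p (the prefix for rat is dropped below), taken by name from 758 rat miRNAs on an Agilent miRNA array. Sprague-Dawley rats gave the RNA, from the synovium (the lining of the joint) of a left knee operated on in either of 2 ways. ACLT, done for 4 samples, cuts the anterior cruciate ligament and is a model of osteoarthritis. Sham surgery, done for the other 4, bares that ligament without cutting it, so that both groups share the opening of the joint and the displacement of the kneecap. The tissue was taken from the side of the joint away from the incision. Sampling was at 2 weeks per the protocol and at day 14 per the series title, whereas the design text gives day 7. Age, sex and genotype are not given in the sources used here. Nothing in the labels calls the numbered replicates separate animals, so a p-value below weighs a difference against the spread among these samples only, and that spread may be technical.

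As background, let-7 was found in the worm as a timer of larval development and is kept in nearly all bilaterian animals. A miRNA pairs with messages mainly through its seed, bases 2 to 8, and let-7 represses growth and stem cell factors such as Lin28, Hmga2, Ras and Myc as well as the cytokine interleukin 6. Its level rises as cells differentiate, and the RNA-binding protein Lin28 blocks the maturation of its precursors by binding their loops.

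The mature sequences are shown because the 9 members can be told apart only by a few bases. RefSeq (build GRCr8) held all 9, each 22 bases long, and the capitals mark the seed.
let-7a-5p: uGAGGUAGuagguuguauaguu
let-7b-5p: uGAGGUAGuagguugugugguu
let-7c-5p: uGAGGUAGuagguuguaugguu
let-7d-5p: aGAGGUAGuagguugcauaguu
let-7e-5p: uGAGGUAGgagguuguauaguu
let-7f-5p: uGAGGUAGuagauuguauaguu
let-7g-5p: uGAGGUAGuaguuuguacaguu
let-7i-5p: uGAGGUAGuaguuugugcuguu
miR-98-5p: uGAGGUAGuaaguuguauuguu

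All 9 carried the seed GAGGUAG, and they were the only ones to do so among the 693 mature rat miRNAs in the table. Counted from the 5′ end of let-7a-5p, let-7c-5p differed from it by A19G, let-7e-5p by U9G and let-7f-5p by G12A. let-7b-5p differed by A17G and A19G, let-7d-5p by U1A and U16C, let-7g-5p by G12U and U18C, and miR-98-5p by G11A and A19U. let-7i-5p stood farthest from let-7a-5p, with G12U, A17G, U18C and A19U. The share of G and C ran from 31.8% in let-7f-5p and miR-98-5p to 45.5% in let-7b-5p. The array's probe sequences are not used here, and how far a probe for one member binds another was not tested.

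By RefSeq, 12 genes encode the 9 members. let-7a-5p, let-7c-5p and let-7f-5p each come from 2 genes, so their signals belong to no single locus. Within 50000 bases of each other lie let-7a-1, a let-7f gene and let-7d, then let-7b and let-7c-2, and let-7f-2 and miR-98. Another 3 let-7 genes are placed with relatives of the worm miRNA lin-4 and of miR-99, namely let-7c-1 with miR-99a and miR-125b-2, let-7a-2 with miR-100 and miR-125b-1, and let-7e with miR-99b and miR-125a. let-7g and let-7i have no miRNA gene within that distance.

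The precursors share a motif that the choice of members did not use. Between the mature arms, on the transcribed strand, 8 of the 10 family hairpins with both arms in the table held GGAG, the letters that Lin28 is known to bind, against 16 of 252 other rat hairpins (6.35%). The let-7b hairpin and the 3′ arm of let-7c-1 are not in the table. The stretch between the arms of let-7g, which holds the motif (capitals), is shown as an example.
let-7g: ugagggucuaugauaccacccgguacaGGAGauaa

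The array detected the guide strands and none of the other strands of the same genes. Feature Extraction, the scanner software, called all 9 members detected on all 8 arrays, and 17 of their 18 probes were well above background on every array. The exception was the dimmer probe of miR-98-5p. Of the 10 passenger arms on the array (the 3′ strands cut from the same hairpins and usually degraded), 0 were detected on any array. Their 36 probes had a median processed signal of 0.042 and reached at most 7.95 scanner units, for let-7a-1-3p on sham replicate 3. The lowest signal well above background on an array was 13.1 to 17.3. The sequence of let-7a-1-3p is also that of let-7c-2-3p, so this probe could not tell the arms apart.

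Rat annotations also name 4 miRNAs read from the opposite strand of let-7 genes. They are shown because each is the exact reverse complement of all or most of a member.
miR-3596a: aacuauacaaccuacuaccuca
miR-3596b: aacuaugcaaccuacuaccu
miR-3596c: acuauacaaccuccuaccuca
miR-3596d: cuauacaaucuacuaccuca

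They pair with let-7a-5p, let-7d-5p, let-7e-5p and let-7f-5p in that order. None of the 4 was detected on any array, and their 10 probes stayed at or below 3.13 scanner units, with a median of -1.40. The lowest value of any member's brightest probe was 20.9, for miR-98-5p.

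**Figure D1:**
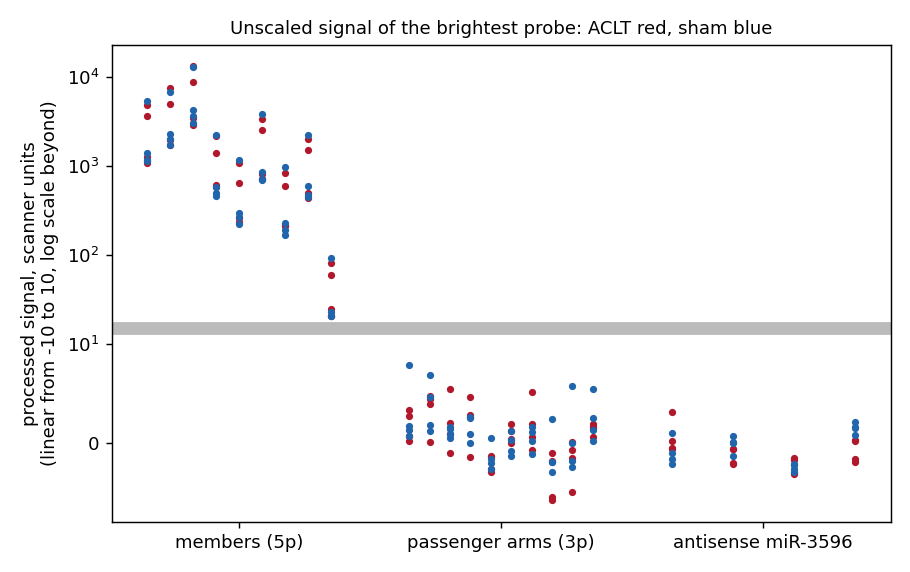
Unscaled processed signal of the brightest probe of each miRNA on each array, in scanner units on an axis that is linear near 0 and logarithmic beyond, for the 9 members, 10 passenger arms and 4 antisense miRNAs, in the order of the alphabet within each class. The grey band spans the lowest signal well above background on the arrays (13.1 to 17.3), and the members lie above it and all passenger and antisense values below.

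The arrays differed in brightness and in their make-up, within groups as much as between them. The scale of an array, the 75th percentile of its signals over 136 probes that stood well above background throughout, ran from 305 to 1097 after ACLT and from 289 to 1185 after sham surgery, and ACLT replicates 1 and 2 and sham replicate 4 were the bright arrays. Of 113 miRNAs tested, 78 were above the floor of the scaled values on all arrays, the 9 members among them. Markers of mesenchyme (3 of 3) were detected on every array and those of epithelium (0 of 5) on none. Striated muscle markers were detected for 6 of 8, with a summed level of 0.181 to 16.4 times the 75th percentile after ACLT and 1.43 to 6.30 after sham surgery.

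Before scaling, each member spanned 4.41-fold (let-7b-5p) to 5.93-fold (let-7g-5p) over the arrays. On ACLT replicates 1 to 4 let-7a-5p read 3668, 4917, 1254 and 1092 scanner units, and on the sham arrays, in the same order, 1174, 1418, 1156 and 5406. The 3 bright arrays stood above the other 5 in both groups. Division by the 75th percentile narrowed the spans to between 1.34-fold (miR-98-5p) and 1.59-fold (let-7f-5p). The percentile is itself partly made of the family, as 17 of its 136 probes are let-7 or miR-98 probes, and the values below are log2 levels relative to it. The family mean spanned 1.42-fold over the arrays with this percentile and 1.96-fold with the family's probes left out of it, against 4.72-fold unscaled. With striated muscle probes left out instead, the span was 1.32-fold. The narrowing thus depended on which probes set the percentile, and the part of the family's own probes in it was not tested. Levels are compared only within a member, because probes differ in their yield.

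No member of the family passed the test for a difference between synovium after ACLT and after sham surgery. The largest of the 9 differences in means was that of let-7d-5p, 1.10-fold higher after ACLT. The values of the groups overlapped for all 9 members, as for all 113 tested miRNAs (0% without overlap).

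let-7a-5p, the member with the founding worm sequence, lay at 2.20, 2.16, 1.83 and 1.84 on ACLT replicates 1 to 4, and the sham arrays gave 2.02, 2.16, 1.71 and 2.19. Its ACLT mean was 2.01 ± 0.20 and its sham mean 2.02 ± 0.22 (SD, n = 4 each). Each group held arrays close to 2.2 and an array close to 1.8 or below.

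let-7b-5p, made beside let-7c-2, lay at 2.63, 2.78, 2.47 and 2.51 on the ACLT arrays and at 2.81, 2.85, 2.28 and 2.51 on the sham arrays. Its means were 2.60 ± 0.14 and 2.61 ± 0.27 (SD, n = 4 each). The sham arrays enclosed all ACLT values.

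let-7c-5p, from the genes beside let-7b and miR-99a, was at 3.45, 3.59, 3.30 and 3.25 after ACLT and at 3.65, 3.75, 3.13 and 3.47 after sham surgery. Its means of 3.40 ± 0.15 and 3.50 ± 0.27 (SD, n = 4 each) gave the most negative difference of the family, -0.10. Here too the sham arrays held both the highest and the lowest value.

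let-7d-5p, from the cluster with let-7a-1 and a let-7f gene, was at 0.81, 0.98, 0.81 and 0.92 after ACLT. After sham surgery it was at 0.77, 0.89, 0.40 and 0.92, with means of 0.88 ± 0.09 and 0.75 ± 0.24 (SD, n = 4 each). Sham replicate 3 lay below all the others, and the 3 remaining sham arrays lay among or just below the ACLT arrays.

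let-7e-5p, from the cluster with miR-99b and miR-125a, was at -0.29, -0.03, -0.43 and -0.36 on the ACLT arrays. On the sham arrays it was at -0.11, -0.09, -0.66 and -0.02, and the means were -0.28 ± 0.18 and -0.22 ± 0.29 (SD, n = 4 each). Of the sham arrays 3 lay at the upper end and replicate 3 at the bottom.

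let-7f-5p, shared by the cluster of let-7d and that of miR-98, was at 1.68, 1.63, 1.22 and 1.25 after ACLT. It was at 1.27, 1.45, 1.04 and 1.70 after sham surgery, with means of 1.44 ± 0.24 and 1.36 ± 0.28 (SD, n = 4 each). The bright arrays, in either group, gave its 3 highest values.

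let-7g-5p was at -0.41, -0.38, -0.68 and -0.54 after ACLT and at -0.80, -0.48, -0.89 and -0.26 after sham surgery, with means of -0.50 ± 0.14 and -0.61 ± 0.29 (SD, n = 4 each). let-7i-5p was at 0.92, 0.87, 0.51 and 0.52 after ACLT and at 0.64, 0.91, 0.42 and 0.92 after sham surgery, with means of 0.71 ± 0.22 and 0.72 ± 0.24 (SD, n = 4 each). These 2 members, from genes without a miRNA neighbour, had their highest value on sham replicate 4 and their lowest on sham replicate 3. The same arrays held the extremes of let-7e-5p, let-7f-5p and miR-98-5p, whose genes do have miRNA neighbours.

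miR-98-5p, which shares an intron of the ubiquitin ligase gene Huwe1 with let-7f-2, was the faintest against its background. It lay at -3.75, -3.74, -3.84 and -3.87 after ACLT and at -3.79, -3.80, -4.07 and -3.65 after sham surgery, with means of -3.80 ± 0.06 and -3.83 ± 0.18 (SD, n = 4 each). All its values were above the floor of -4.48, and its other probe was at the floor on all 8 arrays.

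**Figure D2:**
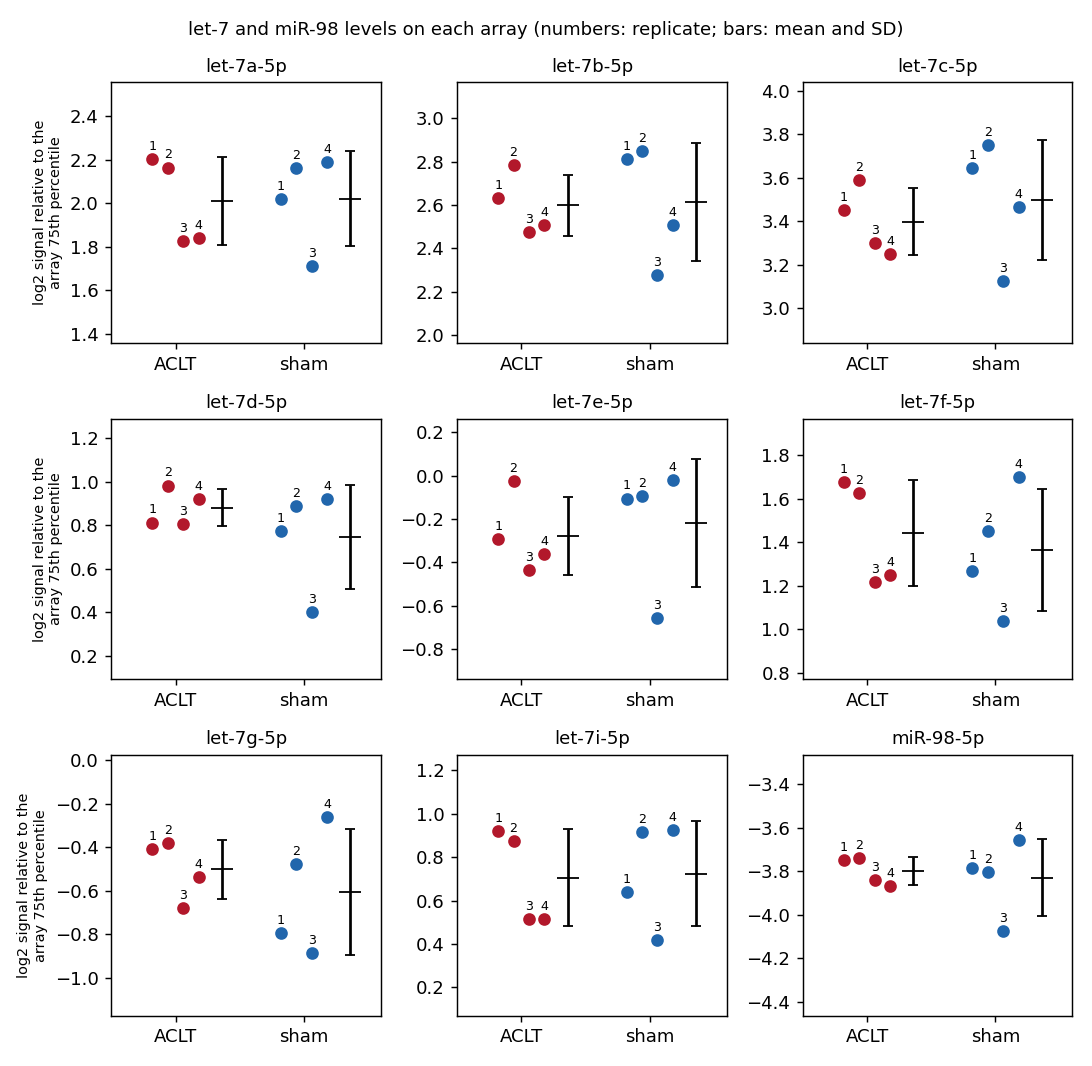
Levels of the 9 members on each array, as log2 signal relative to the array's 75th percentile, in panels that each span 1.2 log2 units. Points are arrays with their replicate number (ACLT red, sham blue), the bars beside them are the mean and SD of 4 arrays, and sham replicate 3 is the lowest point in every panel.

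By limma, fitted over the 113 tested miRNAs with Benjamini-Hochberg adjustment, 0 of the 9 members reached an adjusted p under 0.05, nor did any without adjustment (0 of 9). Over all tested miRNAs 0% passed the adjusted threshold and 7.08% the unadjusted one. The members' adjusted p ran from 0.840 to 0.987. let-7d-5p had a log2 difference of 0.14 (SE 0.12, limma adjusted p = 0.840), let-7g-5p of 0.10 (SE 0.15) and let-7f-5p of 0.08 (SE 0.18), and miR-98-5p of 0.03 (SE 0.10). The 5 negative differences were those of let-7c-5p (-0.10, SE 0.15), let-7e-5p (-0.06, SE 0.16), let-7i-5p (-0.018, SE 0.16), let-7b-5p (-0.014, SE 0.15) and let-7a-5p (-0.012, SE 0.14). The family's median difference was -0.012, beside -0.073 over all tested miRNAs, of which 33.6% had a positive difference. On this scale, to which the family's own probes contribute, the median size of a difference, whatever its sign, was 0.06 for the members and 0.14 for all tested miRNAs.

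The intervals hold for this scaling of the arrays, to which the family itself contributes. The 95% intervals of the 9 members all included 0 and reached from -0.46 (let-7c-5p) to 0.50 (let-7f-5p), which is from 1.37-fold lower to 1.41-fold higher after ACLT. Under other scalings the differences themselves passed that upper bound, at 0.51 for let-7d-5p with the percentile over all probes and 0.67 for miR-98-5p in the authors' table. The percentile over all probes lay below the signals well above background. For miR-98-5p the interval was -0.19 to 0.26 and for let-7a-5p -0.35 to 0.33. Within groups, the pooled SD of a member was 0.13 to 0.26 with a median of 0.22, and that of the 78 miRNAs above the floor had a median of 0.30. Spots of a member's brightest probe on the same array varied by 6.29% (median CV).

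**Figure D3:**
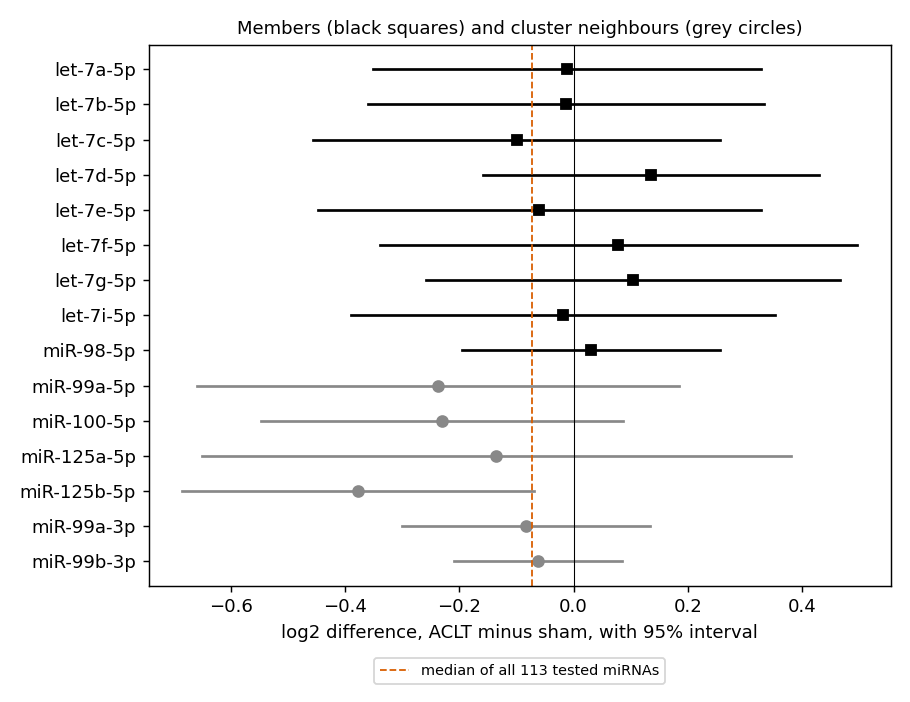
Log2 difference, ACLT minus sham, with its 95% interval from limma, for the 9 members (black squares) and the 6 tested miRNAs of let-7 clusters (grey circles). Every member's interval includes 0, and the dashed line marks the median of all 113 tested miRNAs, -0.073.

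The 2 probes of a member could be compared for the 8 members with both above the floor. Their differences had the same sign for 7 of them and lay 0.0018 to 0.11 apart. let-7g-5p was the exception, at 0.10 with its brighter and -0.0049 with its dimmer probe.

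Sham replicate 3 stood below every other array for all 9 members, and 14 of the 18 probes were lowest there. Of the 69 miRNAs outside the family that were above the floor on all arrays, 21 (30.4%) were lowest on that array. The members are not separate observations of it, since they share an array and a scale. The mean of the 9 members was 0.81, 0.88, 0.58 and 0.61 on ACLT replicates 1 to 4, and the sham arrays gave 0.72, 0.85, 0.37 and 0.86. With signals scaled to labelling spike-ins, 8 members were lowest on ACLT replicate 4 instead, and with unscaled signals 3 members were lowest on sham replicate 3. Without sham replicate 3 the family's median difference was -0.12, and let-7f-5p and miR-98-5p turned to -0.031 and -0.051.

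Of 8 lists of cell type markers, some had their extremes on the arrays where the family was low and others did not. The summed level of the striated muscle markers was 5.09, 0.181, 13.8 and 16.4 on ACLT replicates 1 to 4, with sham values of 2.70, 1.43, 6.30 and 2.31, so that the 3 arrays with the lowest family mean had the 3 highest sums. The mesenchymal sum was 7.20, 8.48, 5.50 and 5.25 after ACLT and 7.19, 6.79, 4.61 and 7.20 after sham surgery, and its 3 lowest values were on those arrays too. The cartilage sum was also lowest there, at 0.362, 0.375 and 0.241 on ACLT replicates 3 and 4 and sham replicate 3. The smooth muscle sum was 0.969, 0.990 and 1.09 on these arrays, lowest on ACLT replicates 3 and 4, while ACLT replicate 1, at 1.07, was below sham replicate 3. On the same arrays the leukocyte sum was 0.224, 0.226 and 0.276, the erythroid sum 0.423, 0.636 and 1.30 and the endothelial sum 0.970, 1.08 and 1.09, neither all low nor all high among the 8. With the percentile taken without striated muscle probes, 7 of the 9 members were lowest on sham replicate 3, whereas ACLT replicate 4, with the highest muscle sum, then shared the highest family mean with ACLT replicate 1 (both 0.14 above the average of the arrays) and ACLT replicate 3 lay at -0.08. The sums and the family mean share each array's divisor, so part of their common course is built in. The part of these tissues in the family's level was not tested. In bulk tissue, fewer cells of a type and less RNA per cell cannot be told apart.

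The sign of the family's difference went with the scaling. Taken over all probes, the percentile was 2.20 to 4.83 scanner units, below every signal well above background (from 13.1 up). With the percentile over all probes, all 9 members had positive differences (median 0.36). The same held without any scaling (0.31), for the values the authors deposited, which are unscaled too (0.31), and with the percentile without striated muscle probes (0.13). With labelling spike-ins all 9 were negative (median -0.18). Quantile normalization, which sets a signal by its rank on the array, left 6 negative and let-7c-5p at 0 (median -0.16). With the percentile without the family's own probes 8 were positive (median 0.05). The median of all tested miRNAs moved along, from -0.25 with spike-ins to 0.25 with all probes. Dividing an array by a single value shifts all its miRNAs alike apart from the floor, so a nearly constant gap between the medians is built in. The family's median exceeded that of all tested miRNAs by 0.06 to 0.12 under all of these settings but quantile normalization, where it lay 0.17 below (-0.17). Under none of them did a member pass limma's adjusted threshold, and a single member had an unadjusted p under 0.05 with quantile normalization (let-7a-5p, 0.0275 before adjustment) and 1 without striated muscle probes.

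**Figure D4:**
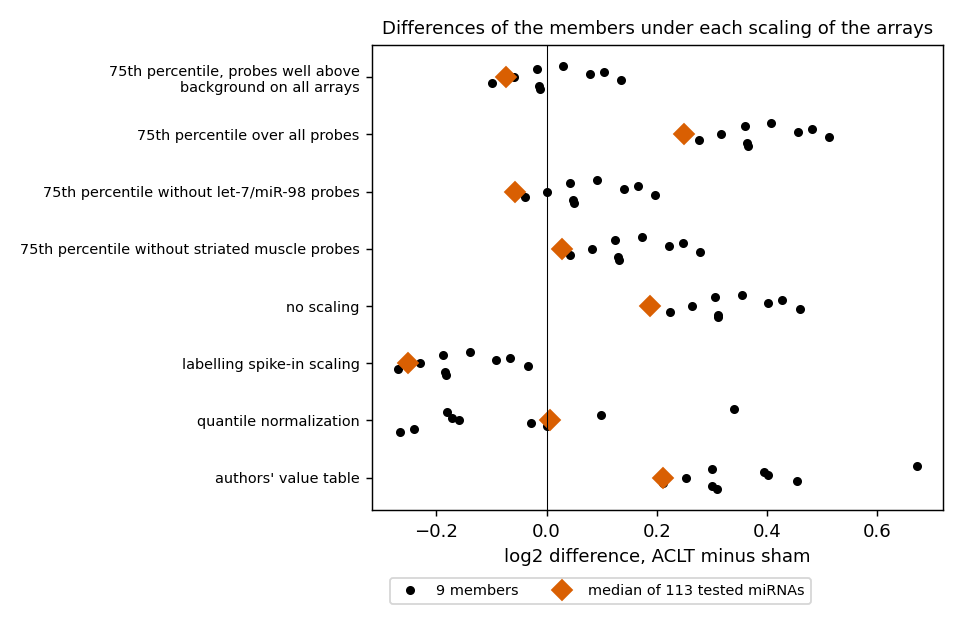
Log2 differences, ACLT minus sham, of the 9 members (black points) under 8 ways of putting the arrays on a scale, with the median of the 113 tested miRNAs (orange diamonds). The members lie all below 0 with spike-ins and all above 0 with the percentile over all probes, and the median moves with them except under quantile normalization. The authors' table also differs from the others in how the probes of a miRNA are summarized.

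Signs also differed between the rows of the slide. Row cannot be told apart from replicate number, and it goes with brightness, since in row 1 the ACLT arrays were the bright ones and in row 2 sham replicate 4 was. Replicates 1 and 2, ACLT and sham alike, lay in row 1 and the others in row 2, and 5 of the 9 members had opposite signs in the rows. let-7f-5p differed by 0.29 within row 1 and -0.14 within row 2, let-7g-5p by 0.24 and -0.033, let-7i-5p by 0.12 and -0.16 and let-7a-5p by 0.09 and -0.12, while let-7b-5p differed by -0.12 and 0.10. let-7d-5p (0.07 and 0.20) and miR-98-5p (0.05 and 0.01) were positive in both rows, and let-7c-5p (-0.18 and -0.022) and let-7e-5p (-0.06 and -0.06) negative in both. With 2 arrays a group in a row, limma called 8 of 113 miRNAs in row 1 (7.08%), none of them a member, and 0 in row 2 (0%).

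Within the family the members kept close to one another. Scaling cancels when each member is taken relative to the mean of the 9 on its array, and on that measure the values farthest from a member's average were both -0.25, for let-7b-5p on sham replicate 4 and let-7g-5p on sham replicate 1. let-7b-5p was at -0.07, 0.01, 0.0008 and -0.0014 on the ACLT arrays and at 0.20, 0.10, 0.01 and -0.25 on the sham arrays. let-7c-5p followed it, at -0.09, -0.02, -0.015 and -0.10 and at 0.19, 0.16, 0.02 and -0.14. Both were thus relatively high on sham replicates 1 and 2 and low on sham replicate 4.

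let-7f-5p ran the other way, at 0.18, 0.06, -0.05 and -0.06 after ACLT and at -0.15, -0.09, -0.03 and 0.14 after sham surgery. let-7g-5p was at 0.05, 0.01, 0.01 and 0.11 and at -0.25, -0.06, 0.0023 and 0.14. For both, sham replicate 1, the dimmest array, was lowest. The part of array brightness in these opposite courses was not tested. let-7d-5p was at -0.10, 0.0041, 0.13 and 0.20 after ACLT and close to -0.06 on all sham arrays (-0.05, -0.06, -0.08 and -0.05).

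Between groups the relative levels differed by -0.12 (let-7c-5p, 95% interval -0.35 to 0.12, limma adjusted p = 0.856) to 0.12 (let-7d-5p, -0.10 to 0.34, adjusted p = 0.839). No member differed in its share of the family past the spread of the arrays, and the groups overlapped for all 9, where 3.54% of the 113 tested miRNAs did not overlap on this scale.

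**Figure D5:**
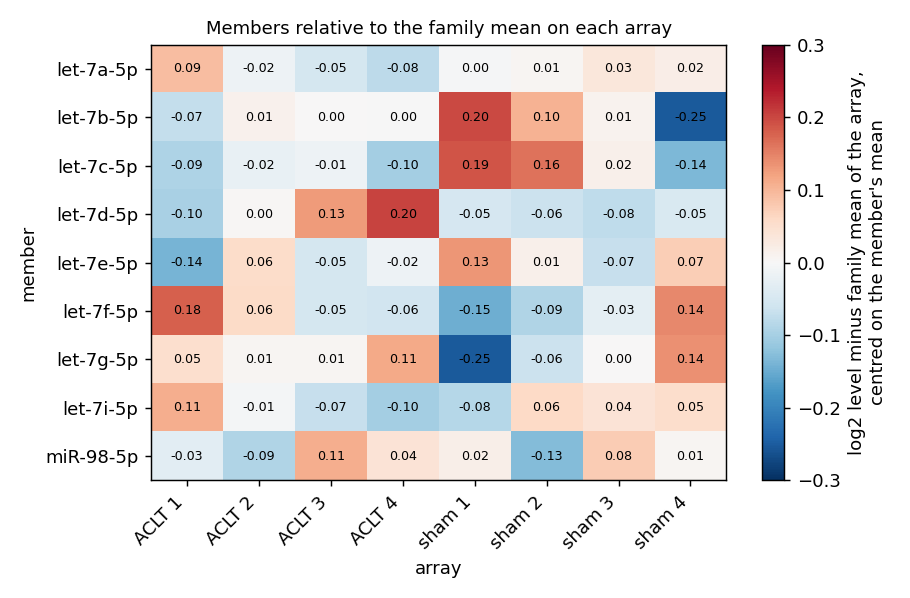
Level of each member minus the family mean of the same array, centred on the member's own average over the 8 arrays, in log2 units (rows are members, columns arrays, red above and blue below that average). let-7b-5p and let-7c-5p are high on sham replicates 1 and 2 and low on sham replicate 4, and let-7f-5p and let-7g-5p the reverse.

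Likeness of course was measured as the root mean square distance between array profiles, each centred on its own mean, over the 8 arrays. let-7a-5p and let-7i-5p were nearest to each other (0.04) although they differ at 4 bases, and let-7b-5p and let-7c-5p were next (0.06), which differ at 1 base and share a cluster. let-7f-5p was nearest to let-7i-5p (0.08), let-7g-5p to let-7f-5p (0.09), let-7d-5p and miR-98-5p to each other (0.10), and let-7e-5p to let-7c-5p (0.11). The widest gap was between let-7b-5p and let-7g-5p (0.23). Of the 36 pairs, the 4 that differ by 1 substitution had a median distance of 0.10, the 10 with 2 substitutions 0.13, the 11 with 3 substitutions 0.17 and the 9 with 4 substitutions 0.13. The 1 pair with 5 substitutions lay 0.13 apart and the 1 pair with 6 lay 0.16 apart. The pairs share members and arrays, so these values are a description.

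The members lay 0.05 to 0.12 from the family's mean profile, to which each of them contributes, so that they are nearer to it by construction. The 104 tested miRNAs outside the family, which do not contribute, had a median distance of 0.27. The 5 nearest were miR-29a-3p (0.09), miR-107-3p (0.10), miR-151-5p (0.11), miR-27b-3p (0.11) and miR-146a-5p (0.12). With the mean of each miRNA's probes, 3 of these 5 were again among the nearest 5.

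No miRNA made from the same clusters as let-7 passed the test. Of 11 strands of miR-99a, miR-99b, miR-100, miR-125a and miR-125b on the array, 6 were tested, and all 6 had a negative difference (median -0.18), although miR-99a-5p, miR-100-5p and miR-125a-5p turned positive with the percentile over all probes, with unscaled signals and in the authors' table. Under these settings, in the same order, the difference of miR-125b-5p shrank to -5.4e-05, -0.0532 and -0.0697. Over all 113 tested miRNAs 73 differences were negative, with a median of -0.073. Of the 6, 0 passed limma's adjusted threshold. miR-125b-5p, encoded beside let-7c-1 and let-7a-2, was at 1.39, 1.46, 1.38 and 1.31 after ACLT and at 1.90, 2.04, 1.65 and 1.46 after sham surgery. Sham replicate 4 fell within the range of the ACLT arrays, and the other sham arrays lay above them.

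miR-100-5p, which lies with let-7a-2, was at -2.36, -2.23, -2.47 and -2.77 after ACLT and at -2.23, -2.11, -2.44 and -2.13 after sham surgery. miR-99a-5p, which lies with let-7c-1, was at -0.03, 0.22, -0.35 and -0.33 and at 0.14, 0.37, -0.25 and 0.19. The groups overlapped for both. The log2 differences were -0.38 for miR-125b-5p (SE 0.13, limma adjusted p = 0.645), -0.23 for miR-100-5p (SE 0.13, adjusted p = 0.761) and -0.24 for miR-99a-5p (SE 0.18, adjusted p = 0.806).

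From the let-7e cluster, miR-125a-5p differed by -0.14 (SE 0.22), or 0.01 without sham replicate 2, and miR-99b-5p was called detected on 5 arrays and sat at the floor on all 8. The passenger strands miR-99a-3p and miR-99b-3p were at the floor on 5 and 6 arrays, so the floor sets the size of their differences.

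Relative to the let-7 family on the same array, miR-125b-5p was lower by 0.39 on the log2 scale after ACLT (-0.39, 95% interval -0.77 to -0.012, limma adjusted p = 0.636). On that scale miR-99a-5p differed by -0.25 (-0.49 to -0.018) and miR-100-5p by -0.25 (-0.49 to -0.0028), both with an adjusted p of 0.636 by limma. For miR-100-5p the ACLT and sham arrays did not overlap, at -0.11, -0.05, 0.01 and -0.33 against 0.10, 0.09, 0.24 and 0.06. This was so for 3.54% of the 113 tested miRNAs, and 7.08% had an unadjusted p under 0.05, while 0% passed the adjusted threshold. The test over all miRNAs thus did not separate these differences from the spread between arrays.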

How the data were processed

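The deposited scanner files hold 1 Cy3 array each. Per the file headers, Feature Extraction 10.7.3.1 from Agilent made them (design 070154, grid build rn4, protocol miRNA_107_Sep09), and their processed signals are an intensity, background-subtracted and not scaled between arrays. The authors' value table holds the same software's total signal per miRNA (largest difference 0). The labels' protocols name a messenger RNA labelling kit with 50 ng of RNA, and whether it served these arrays is not settled here.

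Control spots and outliers (9.01% to 11.1% of an array's spots) were dropped and a probe's other spots averaged. Signals were divided by the array's 75th percentile over 136 probes, values under 0.0449 were set to that floor, and log2 was taken. The brightest probe stood for a miRNA. The 113 miRNAs detected on all 4 arrays of a group were fitted with limma 3.58.1 in R 4.3.3 (lmFit, eBayes, no covariate), Benjamini-Hochberg adjusted at 0.05, with 95% intervals. The fit was tested on simulated data. All arrays lay on 1 slide with 1 scan date; 10.5% to 17.0% of spots were well above background, 0 were saturated, and precision is limited by there being 4 arrays a group.

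The text names all members, the tested miRNAs of the lists of passenger, antisense and neighbouring strands, and the 5 nearest profiles. Members and lists were chosen with earlier results of these data known. Alternatives covered scaling, background, probe summary, filters, floors, variance models, slide row, replicate number and each array left out. Normexp used median signals with an offset of 50, as mean signals are not among the columns used here. Sequences are RefSeq's (GRCr8); no coordinates are printed, as the builds differ. The sequence of 1 precursor is not reported here.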

Additional observations from a re-analysis of the deposited data

Results flagged for a closer look

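For the members and their cluster neighbours, 47 sets of 4 arrays were searched for an extreme value, by the share of the set's span that separates it from its neighbour. In 5 sets that share passed Dixon's 95% critical value. Chance would give 2.35 if the sets were independent and free of the floor, which they are not. The floor fixes most values of the miR-99a-3p set and some of the miR-99b-3p set, both named last. let-7e-5p had a share of 0.865 on sham replicate 3 (-0.66, other sham arrays -0.11 to -0.02). Relative to the family mean the share was 0.834 for let-7b-5p on ACLT replicate 1 (-0.07, others -0.0014 to 0.01) and 0.867 for let-7i-5p on sham replicate 1 (-0.08, others 0.04 to 0.06). It was 1 for miR-99a-3p on ACLT replicate 4 (-4.33, the other ACLT arrays being at the floor of -4.48) and 0.856 for miR-99b-3p on sham replicate 2 (-4.26, others -4.48 to -4.44).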

How the results depend on the processing

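Under all 31 alternatives 0 members passed limma's adjusted threshold, and the smallest adjusted p of a member was 0.224. The number of miRNAs called over all was 0 under each except within slide row 1, where it was 8. The median difference of the 9 members moved from its value of -0.012 by more than the spread between arrays (SD 0.17) under 3 alternatives, coming to 0.36 (percentile over all probes), 0.31 (unscaled signals) and 0.31 (the authors' table, also unscaled). Leaving out each array in turn gave medians of -0.12 to 0.05 and 0 calls throughout.

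Signs turned as follows. With the percentile over all probes, let-7a-5p, let-7b-5p, let-7c-5p, let-7e-5p and let-7i-5p came to 0.36, 0.36, 0.28, 0.32 and 0.36, and miR-99a-5p, miR-99b-3p, miR-100-5p and miR-125a-5p to 0.14, 0.056, 0.15 and 0.24. Without scaling the same 5 members came to 0.31, 0.31, 0.22, 0.26 and 0.31, and miR-99a-5p, miR-100-5p and miR-125a-5p to 0.086, 0.093 and 0.19. In the authors' deposited table the 5 came to 0.31, 0.30, 0.21, 0.25 and 0.30, and miR-99a-5p, miR-99a-3p, miR-100-5p and miR-125a-5p to 0.0733, 0.45, 0.0727 and 0.11. Without striated muscle probes in the percentile they came to 0.13, 0.13, 0.0433, 0.0832 and 0.12, and miR-125a-5p, miR-99a-3p and miR-99b-3p to 0.0072, 0.0632 and 0.0159. Without the family's probes in it, let-7a-5p, let-7b-5p, let-7e-5p and let-7i-5p came to 0.0492, 0.0477, 0.0016 and 0.0433. With Feature Extraction's summary let-7a-5p, let-7b-5p, let-7i-5p and miR-99a-3p came to 0.0256, 0.0164, 0.0163 and 0.17, and with outlier spots kept the first 3 to 0.0092, 0.0140 and 0.0077. Normexp gave let-7a-5p 0.0076, let-7b-5p 0.0078 and miR-98-5p -0.0749. Spike-in scaling gave let-7d-5p, let-7f-5p, let-7g-5p and miR-98-5p -0.0345, -0.0916, -0.0663 and -0.14, and quantile normalization gave let-7d-5p -0.0289 and let-7f-5p -0.17. Within row 1 let-7a-5p and let-7i-5p came to 0.0921 and 0.12, and within row 2 let-7b-5p, let-7f-5p, let-7g-5p, miR-99a-3p and miR-125a-5p to 0.0976, -0.14, -0.0332, 0.0742 and 0.28. The dimmer probe gave let-7g-5p -0.0049. The causes were not tested.

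Single arrays left out moved let-7a-5p between -0.12 and 0.0479, let-7b-5p between -0.13 and 0.0657, let-7e-5p between -0.21 and 0.0064, let-7f-5p between -0.0312 and 0.19, let-7i-5p between -0.12 and 0.0484, miR-98-5p between -0.0511 and 0.0892 and miR-125a-5p between -0.34 and 0.0103. Differences of let-7c-5p (-0.22 to -0.015), let-7d-5p (0.02 to 0.19) and let-7g-5p (0.0092 to 0.22) kept their sign. With replicate number as a block, calls stayed at 0 and the family's median at -0.012. Arrays of the same number deviated together for numbers 2 and 3 (correlations 0.59 and 0.80) and not for 1 and 4 (-0.19 and -0.41), and 3 of 8 arrays correlated best with their own number, so the number is not read as a pairing.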
